A study of Mus musculus with 6 samples.

Results

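The genes described here are 3 metallothioneins (Mt1, Mt2 and Mt3), the metal sensor Mtf1 and 3 zinc carriers (Slc30a1, Slc39a10 and Slc39a6), 7 genes in all among 32275 gene names on the array. They were chosen by name, as every non-control probe whose scanner annotation carries one of these symbols, which gave 10 probes. The samples were satellite cells, the resident stem cells of skeletal muscle, sorted from 3 mice in which Rpt3 was deleted in these cells only and from 3 control mice, all of strain C57BL6. Rpt3, encoded by Psmc4, is one of the ATPases that feed substrates into the proteasome. Total RNA, 5 ng of it, was amplified over the whole transcriptome, labelled with Cy3 and hybridized to 1 Agilent array per mouse. The Cre driver, the deleted part of the gene, the age of the mice and the genotype of the controls are not given in the sources used here.

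Metallothioneins are small cysteine-rich proteins that bind zinc and copper and are classic targets of metal, oxidative and glucocorticoid signals. When free zinc rises, MTF-1, the product of Mtf1, binds metal response elements in promoters and switches on Mt1, Mt2 and Slc30a1. Slc30a1 encodes ZnT1, the zinc exporter of the plasma membrane, while Slc39a10 and Slc39a6 encode the paralogous importers ZIP10 and ZIP6, which can form a complex. MTF-1 is known as a repressor of Slc39a10.

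The promoters of Mt1 and Mt2 are shown because these genes varied together between the arrays, and that of Slc30a1 because it is the member carrier that MTF-1 is known to activate. Each window of 300 bases spans a RefSeq transcription start in build GRCm38.p6, on the + strand. The capitals mark the core of the metal response element, searched on both strands as TGCACNC and TGCGCNC; the matches did not overlap each other.
Mt1, chr8:94178839-94179138: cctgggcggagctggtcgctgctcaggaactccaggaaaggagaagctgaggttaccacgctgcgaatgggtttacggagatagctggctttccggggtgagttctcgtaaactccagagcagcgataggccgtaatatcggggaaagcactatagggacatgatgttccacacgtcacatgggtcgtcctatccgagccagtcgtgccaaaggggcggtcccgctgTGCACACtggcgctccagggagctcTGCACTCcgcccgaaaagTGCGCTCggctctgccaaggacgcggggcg
Mt2, chr8:94172368-94172667: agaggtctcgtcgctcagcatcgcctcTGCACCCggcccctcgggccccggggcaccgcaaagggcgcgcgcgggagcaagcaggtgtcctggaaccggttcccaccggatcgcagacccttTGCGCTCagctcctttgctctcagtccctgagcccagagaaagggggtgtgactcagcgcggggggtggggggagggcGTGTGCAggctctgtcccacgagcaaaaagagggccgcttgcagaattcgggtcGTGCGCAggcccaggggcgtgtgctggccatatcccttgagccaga
Slc30a1, chr1:191906531-191906830: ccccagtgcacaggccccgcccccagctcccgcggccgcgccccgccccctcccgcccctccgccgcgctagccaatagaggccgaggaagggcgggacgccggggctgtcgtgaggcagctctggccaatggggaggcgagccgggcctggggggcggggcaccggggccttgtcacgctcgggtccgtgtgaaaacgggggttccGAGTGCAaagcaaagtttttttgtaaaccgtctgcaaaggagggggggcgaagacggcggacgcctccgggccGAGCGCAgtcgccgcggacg

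The Mt1 window held 3 matches, all on the + strand, at positions -23, 2 and 20 from the RefSeq start. The last 2 of these lie downstream of that start, and whether it is the major start of Mt1 was not examined. The Mt2 window held 4, with 2 on each strand, and the Slc30a1 window 2, both on the - strand. Of all 32851 promoter windows in the table, 1.97% held at least 3 matches, 0.517% at least 4 and 7.11% at least 2. The Mt3 window held 1 match, as 25.7% of windows did at the least, and the Mtf1 window and both Slc39a10 windows held 0. These are matches of letters, and binding of MTF-1 was not measured.

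All 7 genes passed the filter on dim signals, which kept a probe if every array of 1 group or of both read it well above background. Signals are given as log2 of the processed signal over the array's own 75th percentile. None of the 7 passed the threshold between knockout and control cells over all 17952 tested features (limma, adjusted p from 0.588 to 0.992). At an adjusted p under 0.05, 0% of all features were called in either direction, while 1296 features, or 7.22%, had an unadjusted p under 0.05. The mean was higher in knockout cells for 2 members and lower for 5, and the median difference of the 7 was -0.07, against 0.04 over all features. The groups did not overlap for 2 members, Mtf1 and Slc39a10, both lower in knockout cells; of all features 5.95% were separated in that direction and 10.8% in either. In these bulk samples, fewer cells of a type and less RNA per cell cannot be told apart.

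**Figure D1:**
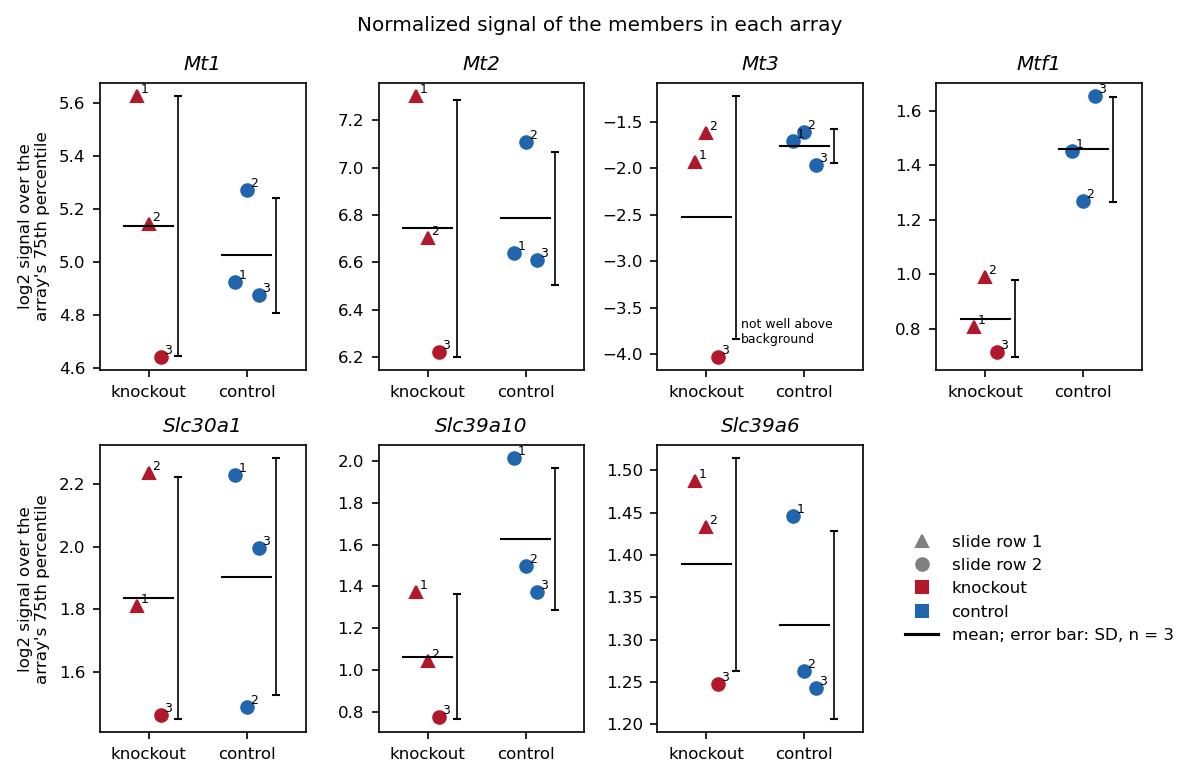
Normalized log2 signal of the 7 genes in each array, knockout left and control right in each panel. Triangles are arrays of slide row 1 and circles arrays of slide row 2, the digits are replicate numbers, and lines and error bars are means and SD (n = 3); knockout 3 is the lowest array for 6 of the 7 genes.

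All 6 arrays lay on 1 slide. Knockout 1 and 2 occupied slide row 1, columns 3 and 4, and knockout 3 and control 1, 2 and 3 occupied slide row 2, columns 1 to 4. Blocking on slide row therefore sets knockout 3 alone against the 3 controls, and its p-values take this single array to vary like the others. Knockout 3 also had the smallest share of non-control probes well above background, at 44.2%, beside 51.7% and 57.9% in knockout 2 and 1 and 53.0% to 53.6% in the controls. It gave the lowest signal of the 6 arrays for 6 of the 7 members and for 25.5% of all features. It also gave the highest signal for 28.0% of all features, though for 0 of the 7 members. The targeted gene Psmc4 had a log2 difference of -0.92 (SE 0.24; limma, adjusted p = 0.412), with 3 of 3 knockout arrays below every control. Its probe checks the deletion only if it lies in the deleted part. Of the 10 satellite cell markers all 10 were tested, among them Pax7, the defining factor of these cells, which was well above background in 2 of 3 knockout and 3 of 3 control samples. Myf5, another marker, was dim (not well above background) in all 3 knockout samples. The summed level of the 10 markers was taken in multiples of the array's 75th percentile. It lay between 49.5 and 78.2 in knockout and between 73.7 and 84.3 in control samples, lowest in knockout 3. Vcam1 and Spry1 weigh most in this sum, at mean log2 signals of 5.02 and 4.42 in knockout and 4.98 and 4.96 in control samples. Pax7, at -1.30 in knockout and -1.47 in control samples, adds little to it. At an unadjusted p under 0.05 3 of the 10 were lower and 0 higher (limma; 0 passed over all features), and the median difference was -0.41. In 4 of them, Myf5 (-1.97), Calcr (-1.04), Fgfr4 (-0.90) and Spry1 (-0.55), every knockout value lay below every control value. Myf5 is counted among the 3 and the 4, but it passed the filter only through the control samples. Its separation was therefore favoured by the filter, and its knockout values are only bounds. Of all features 4.45% were lower at an unadjusted p under 0.05 (limma), and 5.95% were separated in that direction. The mean was higher in knockout cells for 4 other satellite cell markers, Pax7 (0.17), Cdh15 (0.06), Vcam1 (0.04) and Sdc4 (0.48).

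Mt1, one of the pair of ubiquitous metallothioneins, showed no difference beyond the spread between mice. Its probe A_66_P111660, at position 479 of transcript NM_013602 (build mm9, chr8:96704165-96704224, + strand), read 5.62, 5.14 and 4.64 in knockout 1, 2 and 3, against 4.92, 5.27 and 4.87 in control 1, 2 and 3. The knockout values enclosed all the control values, with knockout 1 above and knockout 3 below every control. The means were 5.14 ± 0.49 in knockout and 5.02 ± 0.22 in control cells (SD, n = 3 each), a log2 difference of 0.11 with a 95% interval from -0.57 to 0.79 (limma, adjusted p = 0.985). On the linear scale this is 1.08-fold, and the interval runs from 0.674-fold to 1.73-fold. The exact permutation p was 0.8, where 3 arrays against 3 can reach 0.1 at the least. Blocked on slide row, the difference was -0.38 (adjusted p = 0.528), and without knockout 1 it was -0.13. Without knockout 3 it was 0.36 (adjusted p = 0.736), so the sign depended on which knockout array was counted.

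A second Mt1 probe, A_52_P423810, is assigned to Ensembl transcript ENSMUST00000062980 (mm9, chr8:96703844-96703903, + strand). It read 3.55, 2.43 and 1.49 in knockout 1, 2 and 3, against 1.75, 2.71 and 2.47 in control 1, 2 and 3, and the groups overlapped as with the first probe. Its mean was 2.49 ± 1.03 in knockout and 2.31 ± 0.50 in control cells (SD, n = 3 each). Its difference was 0.18, of the same sign as that of the first probe. Both probes were highest in knockout 1 and lowest in knockout 3.

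Mt2, the other ubiquitous metallothionein and a close copy of Mt1, had nearly equal group means. Its probe, A_51_P246317, lies at position 459 of NM_008630 (mm9, chr8:96697371-96697430, + strand). The values were 7.30, 6.70 and 6.22 in knockout 1, 2 and 3, against 6.64, 7.11 and 6.61 in control 1, 2 and 3. Again knockout 1 lay above and knockout 3 below every control. The log2 difference was -0.04, with a 95% interval from -0.78 to 0.69, or 0.583-fold to 1.62-fold (limma, adjusted p = 0.992; exact permutation p = 1). It was -0.57 blocked on slide row (adjusted p = 0.430), 0.22 without knockout 3, -0.32 without knockout 1 and 0.12 without control 2.

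Mt1 and Mt2 varied together from mouse to mouse. Across the 6 arrays Pearson's r was 0.967 (exact permutation p = 0.00139; adjusted p = 0.0292 over 21 pairs of members) and Spearman's rho was 1 (exact permutation p = 0.00278; adjusted p = 0.0583). Without knockout 1 and knockout 3, the arrays farthest from the median of Mt1, r was 0.877 over the 4 others. Slide rows could not be examined apart, as row 1 holds 2 arrays and row 2 holds 4. The 20 other pairs had adjusted permutation p-values of 0.648 or more for r. The Mt1 probe and the Mt2 probe share no run of bases longer than 7, and 24 of 60 bases match in their best ungapped alignment. The second Mt1 probe had r = 0.929 with the first and 0.911 with Mt2, given as a description. Among the 15535 features above background on all arrays, Mt2 ranked 25 by r with Mt1, and 202 features (1.30%) had an r over 0.9, so high values were not rare with 6 arrays. The share of probes well above background was also highest in knockout 1 (57.9%) and lowest in knockout 3 (44.2%), and its part in the shared pattern was not tested.

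**Figure D2:**
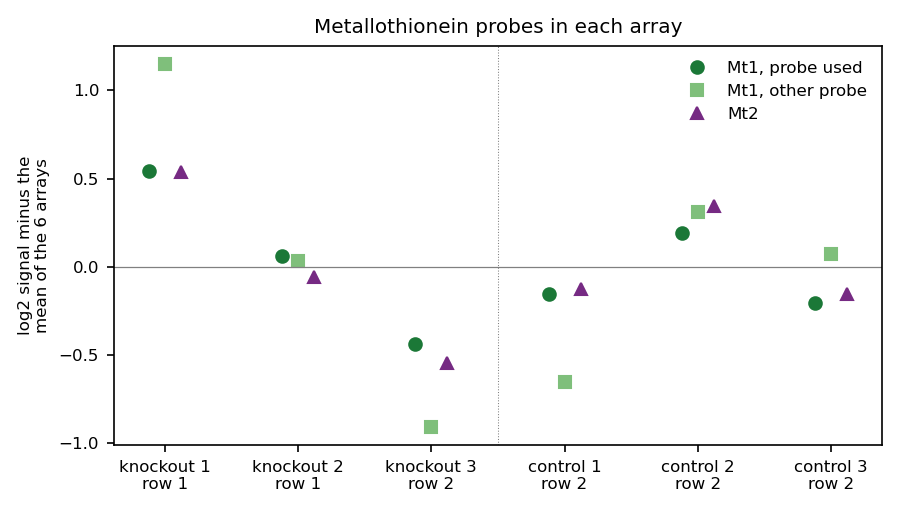
Log2 signal of the Mt1 probe used, the other Mt1 probe and the Mt2 probe in each array, minus the probe's own mean over the 6 arrays, with knockout arrays left and control arrays right of the dotted line. All 3 probes are highest in knockout 1 and lowest in knockout 3, and control 2 is the highest control for each.

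The features most like the mean of Mt1 and Mt2, ranked by Pearson's r over the 6 arrays among 15534 features above background on all of them, were 5 genes with r from 0.986 to 0.998. They were Mrpl54, which encodes a protein of the mitochondrial ribosome (r = 0.998), Fxyd1, a regulator of the sodium pump (0.994), Sbf2, a myotubularin-related gene (0.989), Pdgfrb, a growth factor receptor gene of pericytes and fibroblasts (0.987), and Jtb (0.986). In all 5, as in Mt1 and Mt2, knockout 1 was the highest and knockout 3 the lowest array. They were picked for this likeness, so the values carry no test.

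Mt3, the metallothionein known from brain, was the member with the widest spread. Its probe A_52_P320971, at position 416 of NM_013603 (mm9, chr8:96677927-96677986, + strand), read -1.94, -1.62 and -4.03 in knockout 1, 2 and 3, against -1.71, -1.61 and -1.96 in control 1, 2 and 3. In knockout 3 the probe was not well above background, so that value is only a bound, and the other knockout values lay within the control range. The log2 difference was -0.77 with a 95% interval from -2.10 to 0.57 (limma, adjusted p = 0.931; exact permutation p = 0.6). Without knockout 3 it was -0.02 (adjusted p = 0.992), and blocked on slide row, which rests on knockout 3, it was -2.27 (adjusted p = 0.211). With normexp background correction, which compresses dim signals, it was -0.11. The 4 markers of Schwann cells and other glia, cells of the nervous system, were all tested; their summed level, in multiples of the array's 75th percentile, lay between 5.12 and 11.7 in knockout and between 6.24 and 9.58 in control samples. It was lowest in knockout 3, and its part in the Mt3 value was not tested.

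Mtf1, which encodes the zinc-sensing transcription factor, was the member with the smallest p. Its probe A_52_P467266, at position 6951 of NM_008636 (mm9, chr4:124526365-124526424, + strand), read 0.81, 0.99 and 0.72 in knockout 1, 2 and 3, against 1.45, 1.27 and 1.65 in control 1, 2 and 3. Every knockout value lay below every control value, with 0.99 in knockout 2 and 1.27 in control 2 as the nearest pair. The means were 0.84 ± 0.14 and 1.46 ± 0.19 (knockout and control; SD, n = 3 each). The log2 difference was -0.62 (SE 0.22, 95% interval from -1.12 to -0.12), or 0.651-fold, and ranked 677 by p among all features. It did not pass over all features (limma, unadjusted p = 0.0222, adjusted p = 0.588). The exact permutation p of 0.1 is the lowest that 3 against 3 allows, and 4.45% of all features were lower at an unadjusted p under 0.05. Blocked on slide row, it was -0.74 (adjusted p = 0.294), and without knockout 3 it was -0.56 (adjusted p = 0.546).

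The array carries 2 other Mtf1 probes, at positions 2678 and 5398 of the same transcript, and neither was well above background on any array. Their processed signals were 2.77 to 4.52 intensity units, where the probe at position 6951 read 105 to 194 in knockout and 214 to 257 in control samples. The lower Mtf1 value thus rests on 1 probe.

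Slc30a1, the zinc exporter gene, overlapped fully between the groups. Its probe A_51_P300572, at position 4863 of NM_009579 (mm9, chr1:193736760-193736819, + strand), read 1.81, 2.23 and 1.46 in knockout 1, 2 and 3, against 2.23, 1.49 and 1.997 in control 1, 2 and 3. Knockout 2 and control 1 were the high samples, and knockout 3 and control 2 the low ones. The log2 difference was -0.07, with a 95% interval from -0.75 to 0.61, or 0.594-fold to 1.53-fold (limma, adjusted p = 0.988; exact permutation p = 0.8). It was -0.44 blocked on slide row (adjusted p = 0.546), 0.12 without knockout 3 and 0.09 without control 1. Across the 6 arrays Slc30a1 had r = 0.02 with Mt1 and r = -0.04 with Mt2 (exact permutation, adjusted p = 0.971 for both).

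Slc39a10, the ZIP10 importer gene, had lower values in knockout cells. Its probe A_51_P223498, at position 3947 of NM_172653 (mm9, chr1:46865343-46865402, - strand), read 1.37, 1.04 and 0.77 in knockout 1, 2 and 3, against 2.02, 1.4997 and 1.37 in control 1, 2 and 3. The groups only just failed to overlap: knockout 1 stood at 1.3727 and control 3 at 1.3730, and with median scaling or normexp background correction they overlapped. The means were 1.06 ± 0.30 in knockout and 1.63 ± 0.34 in control cells (SD, n = 3 each). The log2 difference was -0.57 (SE 0.27, 95% interval from -1.19 to 0.06), or 0.675-fold (limma, unadjusted p = 0.0693, adjusted p = 0.765; exact permutation p = 0.1). Blocked on slide row, it was -0.86 (adjusted p = 0.309), and without control 1, the highest sample, it was -0.37.

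Slc39a6, the ZIP6 importer gene on chromosome 18, had the narrowest spread of the 7. It read 1.49, 1.43 and 1.25 in knockout 1, 2 and 3, against 1.45, 1.26 and 1.24 in control 1, 2 and 3, and the groups overlapped. The log2 difference was 0.07 with a 95% interval from -0.41 to 0.55, or 0.754-fold to 1.46-fold (limma, adjusted p = 0.985; exact permutation p = 0.6). Blocked on slide row, it was -0.07.

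**Figure D3:**
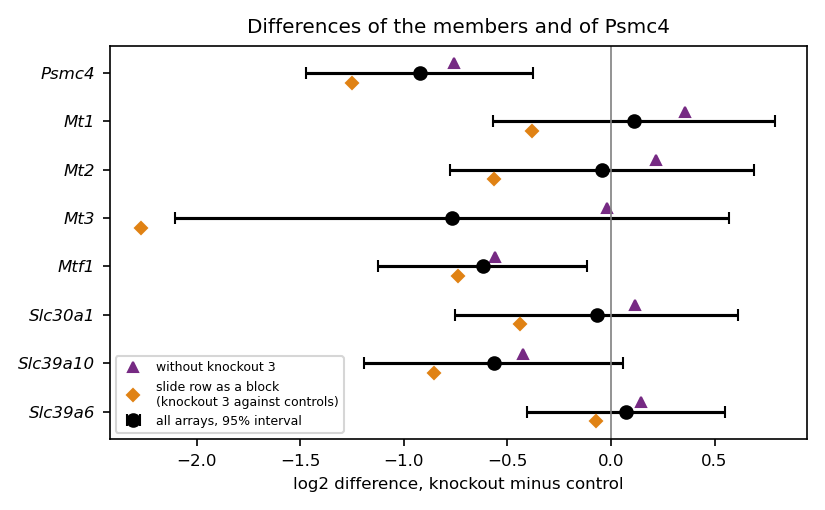
Log2 differences, knockout minus control, of Psmc4 and the 7 genes, with 95% intervals of the limma fit; triangles leave out knockout 3 and diamonds are blocked on slide row. Only the intervals of Psmc4 and Mtf1 lie below 0 throughout.

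The other genes of zinc transport showed no common direction past a test. Of 9 further genes of the SLC30 family of metal transporters, 5 were tested and 0 passed over all features in either direction (limma; 1 was higher and 1 lower at an unadjusted p under 0.05). At that unadjusted p, 2.77% of all features were higher and 4.45% lower. The median difference of the 5 SLC30 genes was -0.11, and 0.24 blocked on slide row. Slc30a9 read -0.38, -0.16 and -0.88 in knockout 1, 2 and 3, against -1.16, -1.101 and -1.098 in control 1, 2 and 3, all knockout values being higher. Its difference was 0.65 (limma, adjusted p = 0.614), but 0.24 blocked on slide row. With the mean of its probes in place of the brightest it was 0.40, and the groups overlapped. Slc30a7, a transporter of the secretory pathway, had the opposite pattern, at -0.95, -0.35 and -0.999 in knockout 1, 2 and 3, against -0.32, 0.24 and -0.10 in control 1, 2 and 3. Its difference was -0.70 (limma, adjusted p = 0.619), and with median scaling the groups overlapped. With the mean of its probes it was -0.50. Slc30a4 differed by 0.53 and Slc30a5 by -0.11, and in both the groups overlapped. Of 12 further SLC39 importer genes 5 were tested, and 0 passed in either direction, also at an unadjusted p under 0.05. All 5 had higher means in knockout cells, with a median difference of 0.14, but the median was -0.20 blocked on slide row, which rests on knockout 3. Slc39a7, which releases zinc from the endoplasmic reticulum and Golgi, differed by 0.28 (adjusted p = 0.957) and Slc39a14, a carrier of zinc and iron, by 0.20 (adjusted p = 0.985).

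Other genes known as targets of MTF-1 did not move as a group. Of 7 listed, 6 were tested, 3 had higher and 3 lower means, and 0 passed (limma; 0 also at an unadjusted p under 0.05), with a median difference of 0.09, and -0.23 blocked on slide row. Gclc, which encodes the catalytic subunit of the first enzyme of glutathione synthesis and also answers to NRF2, read 2.34, 2.02 and 1.84 in knockout 1, 2 and 3, against 1.69, 1.65 and 1.19 in control 1, 2 and 3, with every knockout value higher. Its difference was 0.55 (adjusted p = 0.726). Pgf, a growth factor gene of the VEGF family, differed by 0.54 (adjusted p = 0.835), Csrp1 by -0.23 and Selenow by -0.08, and none passed.

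Among 7 tested genes of copper handling, the other metal that metallothioneins bind, 0 passed over all features, and 1 was higher at an unadjusted p under 0.05, where 2.77% of all features were. That gene was Sod1, the copper and zinc superoxide dismutase. It read 7.48, 7.45 and 6.76 in knockout 1, 2 and 3, against 6.16, 6.12 and 6.102 in control 1, 2 and 3, so all knockout values lay above the narrow control range. Its difference was 1.103, or 2.15-fold (SE 0.26; limma, adjusted p = 0.348; exact permutation p = 0.1), and 0.63 blocked on slide row (adjusted p = 0.291). The copper chaperone gene Atox1 differed by 0.06 and the importer gene Slc31a1 by -0.15, and in these the groups overlapped. The exporter gene Atp7b differed by -0.60, with overlapping groups, but it was well above background in 2 of 3 knockout samples, and without knockout 1, which read -3.58, the difference was -0.057. The list's median was -0.06, and -0.39 blocked on slide row.

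Genes of the inducing signals were mixed as well. Of 6 tested genes of the response to heavy metals and oxidants 0 passed (limma), and the median difference was 0.06. At an unadjusted p under 0.05 (limma) 1 of the 6 was higher, as were 2.77% of all features. Txnrd1, a selenium-dependent reductase under NRF2, read 7.21, 7.46 and 7.31 in knockout 1, 2 and 3, against 6.86, 6.89 and 6.65 in control 1, 2 and 3, higher in every knockout sample. Its difference was 0.53 (adjusted p = 0.639). Osgin1 differed by 0.36 and Srxn1, the only 1 of the 6 with a lower mean, by -0.0019. Of 8 glucocorticoid-induced genes, all tested, 0 passed (limma), with a median difference of -0.10, and -0.31 blocked on slide row. At an unadjusted p under 0.05 (limma) 1 of the 8 was lower, as were 4.45% of all features. Tsc22d3, which encodes GILZ, read 4.89, 5.73 and 5.08 in knockout 1, 2 and 3, against 5.75, 6.31 and 5.93 in control 1, 2 and 3, and the groups did not overlap, though with median scaling they did. Its difference was -0.76 (adjusted p = 0.614), and that of Sgk1, a kinase gene, was -0.34 (adjusted p = 0.864) with groups that did not overlap either. Thus 2 of the 8 genes were separated with lower values in knockout cells, as were 5.95% of all features. In the other direction Klf9 differed by 0.43 and Per1 by 0.21, and the groups overlapped. Without knockout 1 the difference of Klf9 was 0.22, and without control 3 that of Per1 was 0.0053.

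**Figure D4:**
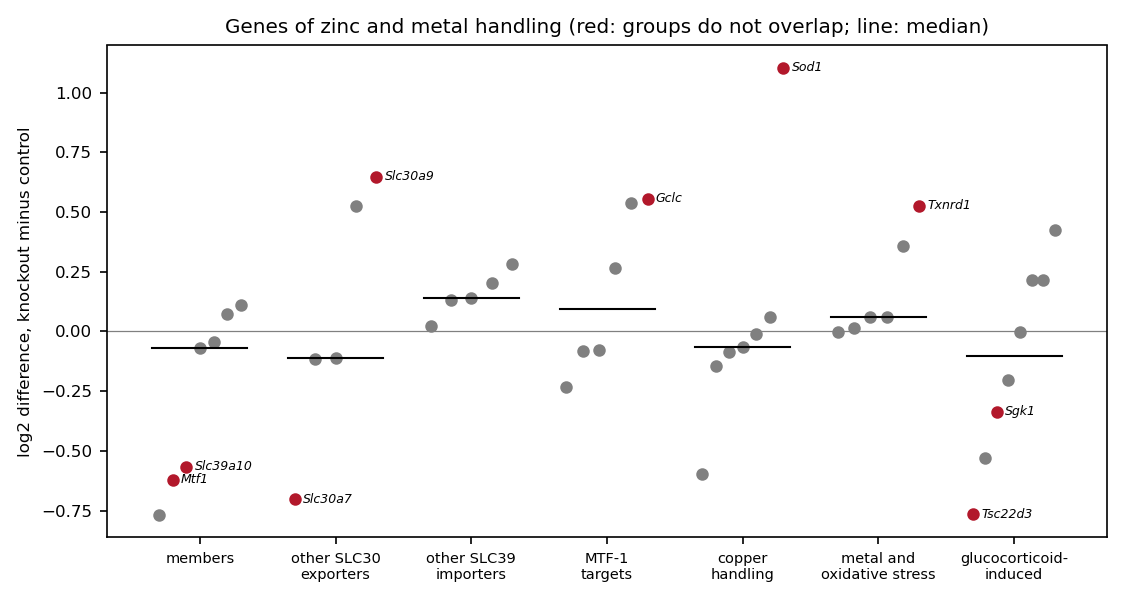
Log2 differences, knockout minus control, of the 7 genes and of the tested genes of 6 lists of zinc and metal handling; red points are genes whose groups do not overlap and black lines are medians. Sod1, at 1.103, is the highest point, and the list medians lie between -0.11 and 0.14; blocked on slide row, they lie between -0.39 and 0.24.

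Markers of other cells were present in the sort and differed between arrays. The summed level of the 6 endothelial markers, all tested, lay between 26.8 and 68.7 in knockout and between 26.2 and 89.2 in control samples. For muscle fibres 3 of 6 markers were tested, with sums of 7.20 to 16.6 in knockout and 11.4 to 13.2 in control samples, lowest in knockout 3; Ckm was not well above background on any array. For macrophages 5 of 7 markers were tested, with sums of 30.3 to 30.8 in knockout and 25.9 to 34.0 in control samples. Cd68 and Csf1r weigh most in these sums. The mean was higher in knockout cells for C1qb (0.81), Lyz2 (0.78) and Csf1r (0.09). It was lower for Cd68 (-0.18) and Adgre1 (-0.16), and the groups of all 5 overlapped. For neutrophils 3 of 8 were tested, with sums of 0.790 to 7.59 in knockout and 0.737 to 0.882 in control samples. The 7 markers of fibro-adipogenic progenitors had sums of 503 to 545 in knockout and 605 to 957 in control samples. Col1a1, the brightest of the 7, weighs most in these sums. Its mean log2 signal was 8.10 in knockout and 8.81 in control samples. It was lower in every knockout sample (-0.71) and was the only 1 of the 7 whose groups did not overlap. Of all features 5.95% were separated in that direction and 10.8% in either. In 3 of the 7 markers, Lum, Ly6a and Gsn, the mean was higher in knockout cells. The 4 tested red blood cell markers had sums of 7.27 to 16.0 in knockout and 2.28 to 6.82 in control samples, higher in every knockout sample. Of the 4, 3 globin genes had higher means in knockout cells, Hbb-bs with overlapping groups, while Slc4a1 differed by -0.0078. Hba-a1 and Hbb-bt were separated with higher values in knockout cells, as were 4.87% of all features. Hbb-bt passed the filter only through the knockout samples. The part of satellite cells and of these other cells in the values of Mtf1, Slc39a10 and Sod1 was not tested.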

How the data were processed

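Each scanner file holds the linear intensity values of 1 array. The authors' processed signal had its background removed, with spatial detrending, per the file headers, which name Agilent Feature Extraction 10.7.1.1; version 9.5.1.1 stands in the submitters' processing notes. The deposited value table holds intensity values that are quantile normalized, as its equal medians (17.7) and 75th percentiles (83.8) show, and served as an alternative.

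The processed signal was divided by its 75th percentile over the array's non-control spots and taken as log2. Feature outliers were dropped and repeat spots averaged per probe. Tested probes were unflagged everywhere and well above background throughout a group; the probe with the highest mean stood for a gene. Of 55681 probes, 2744 had no gene name and 27235 matched a RefSeq accession. The 24762 tested probes gave 17952 features. Groups were compared with limma 3.58.1 in R 4.3.3 (Benjamini-Hochberg over all features, threshold 0.05, 2-sided), beside 2-sided exact permutation tests. The number of arrays limits the precision; the median standard error of a difference was 0.28. The code was tested on simulated data. Of each metal list, the genes named are up to 2 with the smallest p in each direction. The members and lists were chosen with earlier results of these data known. Genes most like Mt1 and Mt2 were ranked by Pearson's r with their mean profile. Slide rows and columns were read from the numbers that end the name of each scan, as the headers give no array position. Alternatives changed the background correction, scaling, filter, choice of probe, moderation and blocks, or left out each array in turn.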

Additional observations from a re-analysis of the deposited data

How the results depend on the processing

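None of the 7 genes passed the threshold under any of the alternatives that gave a value for it (19 each, 18 for Mt3, which lacks a value where a probe had to be above background on all 6 arrays). Mtf1 stayed lower in knockout cells in all of them (-0.74 to -0.47), as did Slc39a10 (-0.86 to -0.37). Mt3 was also lower in those that gave it a value (-2.27 to -0.02). That direction rests on knockout 3, where its probe was not well above background, and without this array the difference was -0.02. Blocked on slide row, or within row 2 only, signs turned for Mt1 (-0.38), Slc39a6 (-0.070), Atox1 (-0.25), Klf9 (-0.10), Per1 (-0.25), Slc39a14 (-0.20) and Atp7b (0.25), and within row 2 only also for Slc30a9 (-0.060, by another probe); these fits rest on knockout 3. Leaving out each array in turn gave ranges of -0.13 to 0.36 for Mt1, -0.32 to 0.22 for Mt2 and -0.28 to 0.12 for Slc30a1. They were -0.048 to 0.22 for Atox1, -0.17 to 0.085 for Selenow, -0.22 to 0.070 for Slc30a5, -0.33 to 0.023 for Slc31a1, -0.040 to 0.62 for Slc39a14 and -0.25 to 0.26 for Srxn1. For other named genes that moved by over 1.5 times they were 0.0053 to 0.44 for Per1, 0.22 to 0.69 for Klf9, -0.41 to -0.033 for Csrp1, 0.12 to 0.51 for Osgin1, 0.29 to 0.75 for Pgf, 0.13 to 0.42 for Slc39a7 and -1.02 to -0.057 for Atp7b. Median scaling turned Srxn1 (0.030). The row block turned the list medians of the other SLC30 genes (0.24), the other SLC39 genes (-0.20; -0.05 within row 2) and the MTF-1 targets (-0.23), and 1 array left out turned that of the other SLC30 genes (-0.20 to 0.07) and of copper handling (-0.067 to 0.15), which normexp turned too (0.012). The count of features called, 0 in each direction, became 1 lower with quantile normalization and in the deposited table, 2 lower with median scaling, and 4 higher and 4 lower with an intensity trend and robust moderation; why was not tested. Replicate numbers gave no clear pairing of the samples (correlations of same-numbered deviations 0.07, -0.02 and 0.09). Knockout 1 and knockout 3 correlated best with the control of the same number, and knockout 2 with control 1. Correlations this small do not settle whether the samples were paired. The replicate block left the members' differences as they were (Mtf1 -0.62, adjusted p = 0.662) and called no other result; 1347 features had an unadjusted p under 0.05, against 1296 without it. The correlation of Mt1 and Mt2, recomputed by a choice made after seeing the data, lay between 0.944 and 0.989 under 15 alternatives. Dim signals limit Mt3.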
